A study of Mus musculus with 12 samples.

Results

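To examine the genes with which the heart releases and takes up Ca2+, 10 genes of the sarcoplasmic reticulum and of the membranes next to it were followed across the study's 12 heart libraries. They were chosen by name, with earlier results of these data known. All 10 were matched by symbol to the Ensembl identifiers of the 2 deposited count tables, among the 38293 genes listed. They were the release channels Ryr2 and Ryr3, the luminal and junctional proteins Casq2 and Trdn, the membrane tether Jph2, the pump Atp2a2 with its inhibitors Pln and Sln, the store-operated channel Orai1 and the Na+/Ca2+ exchanger Slc8a1. The study measured RNA by sequencing in mice with ischaemia–reperfusion injury (IR), in which the left anterior descending artery was ligated for a time and then released. A first table held 3 WT sham libraries, from C57Bl/6J mice that had sham surgery, and 3 WT IR libraries, from C57Bl/6J mice 14 days after IR. The other table held 3 Zeb2 WT IR libraries, from WT control mice, and 3 Zeb2 cTg IR libraries, both labelled C57Bl/6J and taken 14 days after IR. Zeb2 cTg mice carried a Zeb2 transgene behind a stop cassette in the Rosa26 locus, opened by Cre under the Myh6 promoter and thus meant for cardiomyocytes, while neither the labels nor the methods say whether the Zeb2 WT mice carried Cre. The methods give young adult mice. The labels name the left ventricle, the design text the infarct area with the border zone and the methods the remote zone, and these sources do not settle which part of the wall was sampled. In such bulk tissue, fewer cardiomyocytes and less RNA per cardiomyocyte cannot be told apart.

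In a cardiomyocyte, Ca2+ that enters through the surface membrane opens ryanodine receptors on the sarcoplasmic reticulum, and the Ca2+ that leaves the store starts contraction. The junction at which this happens is held together by junctophilin, and calsequestrin and triadin buffer Ca2+ in the lumen and link it to the channel. For relaxation the SERCA2 pump, encoded by Atp2a2 and restrained by phospholamban or sarcolipin, returns Ca2+ to the store, and the Na+/Ca2+ exchanger carries the rest out of the cell.

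Gene counts of a library summed to between 20215781 and 36816818, of which 60.6% to 73.5% fell on the mitochondrial genome. The other genes, among them all members, held 5706340 to 11618213 counts per library. Levels are given as counts per 1000000 after TMM normalization within a table (CPM), and 1 CPM stood for 17.2 to 37.8 counts. The mitochondrial counts were kept in the totals behind the CPM. All 20 cardiomyocyte markers were detected in every library, while the 8 skeletal muscle markers summed to 0.162 to 2.98 CPM. As a check of the labels, the targeted gene Zeb2 stood at 59.8 ± 6.43 CPM (SD, n = 3) in the Zeb2 WT IR libraries and at 57.03 ± 1.59 CPM (SD, n = 3) in those labelled Zeb2 cTg IR, a log2 fold change of -0.07 with an adjusted p of 0.750 (edgeR's quasi-likelihood test, Benjamini-Hochberg adjustment over all genes, threshold 0.05). The counts thus did not show a higher level of Zeb2 in the latter, called the cTg-labelled libraries from here on, and every direction given for them rests on that label. Whether the transcript of the transgene holds the sequence counted as Zeb2 was not tested.

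Of the 4 members that changed in either comparison, reference promoters of 3 were at hand, and they are shown because these genes are the ones the results turn on. The sequences are the 250 bases before the start site in RefSeq (GRCm38.p6, written 5′ to 3′ on the gene's own strand). That of Ryr2 lies at chr13:12106946-12107195 on the minus strand, that of Jph2 at chr2:163397994-163398243 on the minus strand and that of Orai1 at chr5:123014824-123015073 on the plus strand.
Ryr2: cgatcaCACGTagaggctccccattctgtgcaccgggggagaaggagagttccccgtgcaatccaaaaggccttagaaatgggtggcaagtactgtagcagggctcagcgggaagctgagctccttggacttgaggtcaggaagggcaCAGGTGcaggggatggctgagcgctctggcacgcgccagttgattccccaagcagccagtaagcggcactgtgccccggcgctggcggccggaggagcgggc
Jph2: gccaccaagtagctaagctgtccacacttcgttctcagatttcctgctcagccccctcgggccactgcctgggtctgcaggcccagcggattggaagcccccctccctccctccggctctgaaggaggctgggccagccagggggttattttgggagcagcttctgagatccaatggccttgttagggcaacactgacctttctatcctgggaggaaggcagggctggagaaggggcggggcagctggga
Orai1: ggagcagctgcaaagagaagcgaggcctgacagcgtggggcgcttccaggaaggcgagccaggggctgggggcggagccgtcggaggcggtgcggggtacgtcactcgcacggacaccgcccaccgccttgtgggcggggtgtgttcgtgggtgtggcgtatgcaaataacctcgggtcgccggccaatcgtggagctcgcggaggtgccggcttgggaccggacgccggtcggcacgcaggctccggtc
Capitals mark 2 short motifs searched on both strands, the ZEB E-box core CACCTG, read as CAGGTG from the other strand, and the hypoxia response core ACGTG, read as CACGT from the other strand. Only in Ryr2 were both found, the E-box starting at base 149 and the hypoxia response core at base 7 of the printed sequence, and they did not overlap. In windows of 300 bases that reach 50 bases past the start, the E-box was in 1 of 7 promoters of 6 members and in 20.2% of all 32851 mouse promoters. The hypoxia response core was in 2 of 7, those of Ryr2 and Pln, and in 19.6% of all. These are matches of letters and say nothing of binding. GC content of the printed sequences was 63.2% in Ryr2, 62% in Jph2 and 70.8% in Orai1.

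To set the levels of genes against each other, levels were given per kilobase of annotated exon (CPM per kb). The exons of all annotated transcripts of a gene were pooled for this length. Which of these exons the heart uses was not tested, so level and order depend on the annotation. In WT sham hearts, Pln stood highest with 890 ± 42.9 CPM per kb (SD, n = 3), followed by Atp2a2 with 721 ± 56.6 and Casq2 with 143 ± 10.7. Ryr2 stood at 68.0 ± 4.47, less than its high counts would make it appear, since its exons span 28790 bases. Below it came Jph2 with 27.3 ± 3.36, Trdn with 11.3 ± 0.631, Slc8a1 with 9.80 ± 1.48 and Orai1 with 1.75 ± 0.242 CPM per kb. Ryr3, the ryanodine receptor better known from brain and skeletal muscle, was at 0.0313 ± 0.0107 CPM per kb, and Sln was at 0. The libraries of no neighbouring pair in this order overlapped.

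The order was nearly the same in the other 3 groups. In WT IR hearts, Slc8a1 and Trdn overlapped at 10.4 and 10.2 CPM per kb. In Zeb2 WT IR hearts, Slc8a1, Trdn and Jph2 could not be ranked, with 16.0, 15.2 and 13.5 CPM per kb, and the same held in the cTg-labelled libraries. Orai1 and Ryr3 kept the places above Sln in each group, but both lay at levels where few reads carry the estimate. Because the tables were normalized on their own, no test was made between a group of the WT table and a group of the Zeb2 table.

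**Figure D1:**
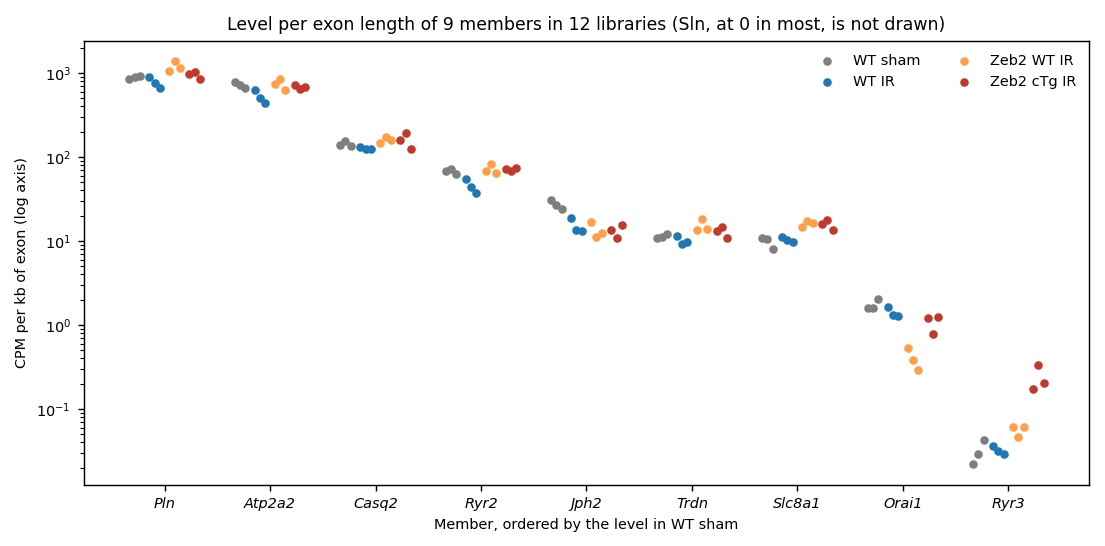
Level of 9 members in CPM per kb of exon (log axis) in each of 12 libraries, with 3 points per group in 4 groups and members ordered by WT sham. Pln (890 in WT sham) and Atp2a2 (721) lie highest in every library, Jph2, Trdn and Slc8a1 run together in the Zeb2 table, and Ryr3 (0.0313 in WT sham) lies lowest of those drawn.

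To ask how the members differed after injury, WT IR hearts were compared with WT sham hearts. After IR, Ryr2 fell by 33.2% and Jph2 fell by 44.4%, and no member was called higher. Of 9 members that passed the filter on low counts, 2 were called, both lower. Over all 13756 genes tested, 20.8% were called, 11.0% higher and 9.74% lower, so the members' share of calls was close to that of the genes at large. That share of all genes ran from 3.05% without WT sham replicate 2 to 36.0% without WT IR replicate 1. Of the 9 members, 7 had a log2 fold change below 0, beside 49.2% of all genes, and their median was -0.20 beside 0.01. In 4 members (Ryr2, Casq2, Jph2 and Atp2a2) the groups did not overlap, beside 39.8% of all genes.

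Ryr2, the release channel of the heart (chr13:11553102-12106945, minus strand, GRCm38), was measured at 1988, 2068 and 1816 CPM in the WT sham libraries. It was at 1580, 1265 and 1077 CPM in the WT IR libraries. Every WT IR library thus lay below every WT sham library. The log2 fold change was -0.58 (SE 0.15, adjusted p = 0.0276, edgeR). The call was kept in 12 of 12 alternative settings, but when single libraries were left out it was kept in 2 of 6 fits. It was lost without WT sham replicate 1 (log2 fold change -0.57), 2 (-0.55) or 3 (-0.65) and without WT IR replicate 2 (-0.56), with adjusted p-values up to 0.131.

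Ryr3 was close to the lower limit of what was measured in this table, with 11, 18 and 14 counts in WT sham and similar CPM in WT IR, 0.416, 0.552 and 0.815 beside 0.687, 0.608 and 0.559. The groups overlapped. Its log2 fold change was 0.12 with a 95% interval from -0.55 to 0.79, which leaves room for a change in either direction.

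Of the luminal and junctional proteins, calsequestrin 2 (Casq2) stood at 379, 425 and 370 CPM in WT sham and at 358, 340 and 342 CPM in WT IR. The groups did not overlap, but the log2 fold change of -0.17 (SE 0.09) had an adjusted p of 0.213. Triadin (Trdn), which anchors calsequestrin to the channel, stood at 102, 104 and 113 CPM beside 108, 86.1 and 91.7 CPM and overlapped between groups. Its log2 fold change was -0.16 (adjusted p = 0.280, edgeR). With a correction for GC content it was -0.38 and passed the threshold.

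Junctophilin 2 (Jph2, chr2), which ties the sarcoplasmic reticulum to the T-tubule, had the largest change of the members in this comparison. It was at 131, 116 and 102 CPM in WT sham and at 80.4, 57.8 and 55.6 CPM in WT IR. No WT IR library reached the lowest WT sham library. The log2 fold change was -0.85 (SE 0.15, adjusted p = 0.00734, edgeR), and the call was kept in 12 of 12 alternative settings and in 6 of 6 fits without a library. Its size was less steady, since with a correction for GC content the log2 fold change was -0.48 (adjusted p = 0.0288, edgeR).

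Atp2a2, the pump, moved in the direction of Ryr2 without passing the threshold. Its levels were 4702, 4427 and 4018 CPM in WT sham and 3855, 3057 and 2695 CPM in WT IR, so the groups did not overlap. The log2 fold change was -0.45 (SE 0.17, adjusted p = 0.0822, edgeR), with a 95% interval, unadjusted, from -0.83 to -0.08. It passed the threshold with DESeq2, with no filter on low counts, and without WT IR replicate 1 (log2 fold change -0.61, adjusted p = 0.00275). These were 2 of 12 alternative settings and 1 of 6 fits without a library. Over the alternative settings the log2 fold change of Atp2a2 ran from -0.57 to -0.19. Phospholamban (Pln), which slows the pump, was at 2342, 2446 and 2578 CPM in WT sham and at 2461, 2115 and 1852 CPM in WT IR. Its groups overlapped, and the log2 fold change was -0.20 (95% interval -0.51 to 0.12).

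Orai1 and Slc8a1 stood outside the store. Orai1, the pore of store-operated entry, was at 3.71, 3.68 and 4.66 CPM in WT sham and at 3.72, 2.99 and 2.91 CPM in WT IR, a log2 fold change of -0.31 with an adjusted p of 0.185. Slc8a1, the exchanger, was at 204, 197 and 152 CPM beside 210, 191 and 185 CPM, a log2 fold change of 0.08 (adjusted p = 0.644). Both overlapped between groups. Scaled to cardiomyocyte markers, Slc8a1 stood at 0.36 and passed the threshold.

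**Figure D2:**
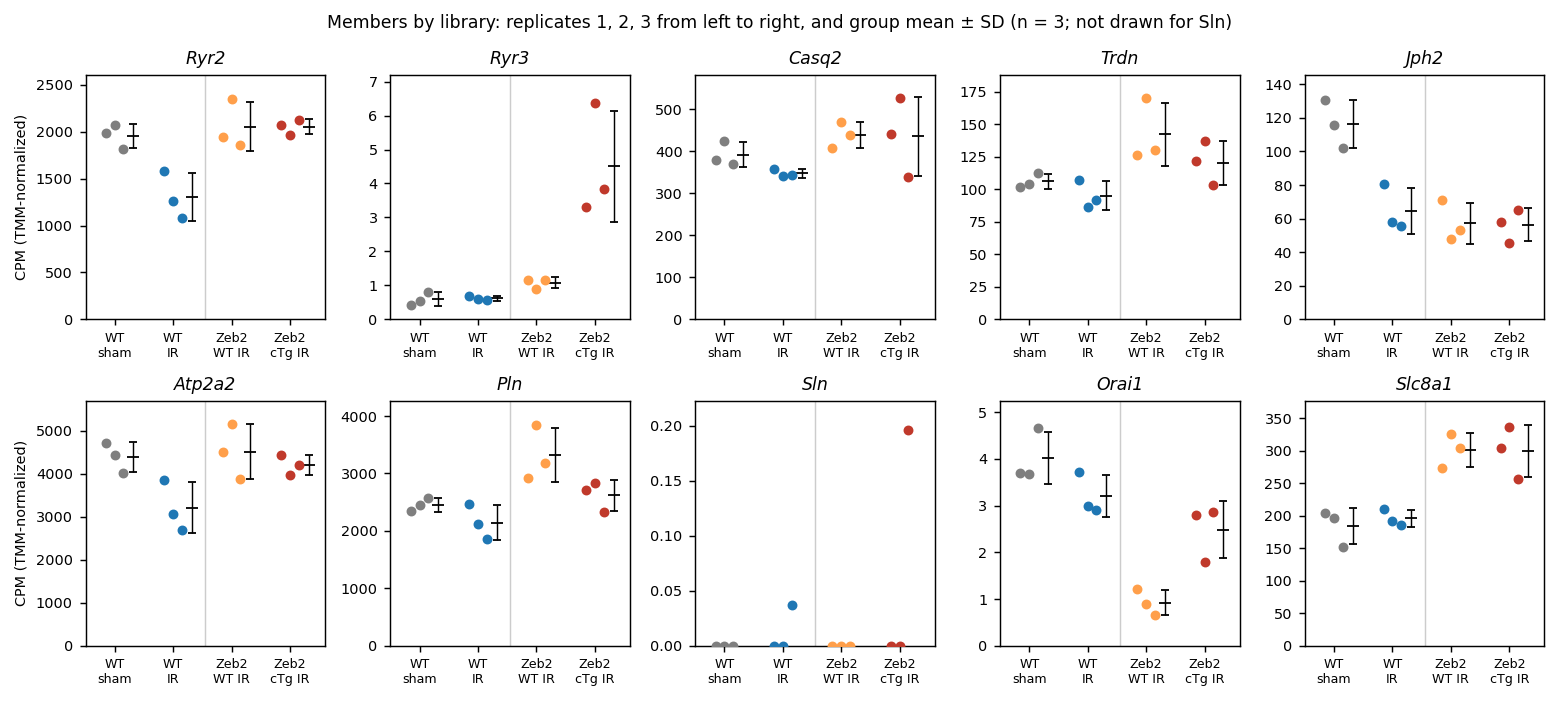
CPM (TMM-normalized within a table) of the 10 members in each library of the 4 groups, replicates 1, 2 and 3 from left to right, with the group mean ± SD (n = 3) beside the points except for Sln; the grey line separates the tables. Ryr2 and Jph2 lie lower in every WT IR than in every WT sham library, and Ryr3 and Orai1 lie higher in every cTg-labelled library than in every Zeb2 WT IR library.

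Markers of other cell types moved with injury beside these genes. The 10 fibroblast markers summed to 561 to 1029 CPM in WT sham and to 1976, 3202 and 4941 CPM in WT IR replicates 1, 2 and 3, and 9 of 10 were called higher. Of 10 macrophage and leukocyte markers, 7 were called higher. The 20 cardiomyocyte markers summed to 64110 to 70467 CPM in WT sham and 50146 to 63820 CPM in WT IR, with 5 of 20 called lower and a median log2 fold change of -0.25. WT IR replicate 1, which had the lowest fibroblast sum of its group, also had the highest Ryr2, Jph2 and Atp2a2 of its group. When the size factors were taken from the cardiomyocyte markers, which moved the median of all genes by 0.28, Ryr2 was at -0.32 and Jph2 at -0.59, both still called lower, while Casq2, Trdn and Pln turned to 0.11, 0.11 and 0.06. The part of cell composition in the changes was otherwise not tested.

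To ask how the members differed between the transgenic and control hearts, the cTg-labelled libraries were compared with Zeb2 WT IR libraries. Ryr3 was 4.16-fold and Orai1 2.70-fold higher, both from low levels, and no member was called lower. Of 9 members tested, 2 were called, both higher, beside 3.64% of 13018 genes, 2.14% higher and 1.51% lower. As the members were chosen with earlier results of these data known, their share is only a description. Of all genes, between 0.737% (without Zeb2 WT IR replicate 3) and 18.2% (without cTg-labelled replicate 2) were called when a library was left out. The groups did not overlap in 3 members (Ryr3, Orai1 and Pln), beside 26.2% of all genes. The log2 fold change was below 0 in 7 of 9 members and in 49.4% of all genes, and the median of the members was -0.01, and 5 of those 7 lay between -0.10 and -0.00.

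Ryr3 (chr2:112631355-113217096, minus strand, GRCm38) was at 1.17, 0.890 and 1.17 CPM in the Zeb2 WT IR libraries, from 32, 22 and 35 counts. In the cTg-labelled libraries it was at 3.31, 6.37 and 3.85 CPM, from 79, 167 and 137 counts. All of these lay above the controls, and replicate 2 stood highest. The log2 fold change was 2.06 (SE 0.29, adjusted p = 0.00967, edgeR). The call was kept in 12 of 12 alternative settings, between 1.85 and 2.07, and in 6 of 6 fits without a library. Aven, a gene on the opposite strand, shares 916 exonic bases with Ryr3, and the strand setting of the counting is not given in the sources used here. Aven stood at 4.36 CPM in the controls and 4.83 CPM in the cTg-labelled libraries, a log2 fold change of 0.15 (adjusted p = 0.625).

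Orai1 was at 1.21, 0.890 and 0.666 CPM in Zeb2 WT IR (33, 22 and 20 counts) and at 2.81, 1.79 and 2.86 CPM in the cTg-labelled libraries (67, 47 and 102 counts). The groups did not overlap. Its log2 fold change was 1.44 (SE 0.30, adjusted p = 0.0347, edgeR), and this call was less steady than that of Ryr3. It was kept in 11 of 12 alternative settings and in 2 of 6 fits without a library, being lost without Zeb2 WT IR replicate 2 (log2 fold change 1.41) or 3 (1.24) and without cTg-labelled replicate 1 (1.34) or 3 (1.32). The Zeb2 WT IR level of 0.922 ± 0.273 CPM was the lowest of the 4 groups, the WT IR level in the other table being 3.21 ± 0.446 CPM. These levels are given side by side, as they come from tables normalized apart.

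Ryr2 itself was at 1949, 2352 and 1858 CPM in Zeb2 WT IR and at 2071, 1964 and 2122 CPM in the cTg-labelled libraries. The groups overlapped, and the log2 fold change was -0.00 with a 95% interval from -0.31 to 0.31. In Casq2 (407, 470 and 438 beside 440, 527 and 339 CPM) the log2 fold change was -0.01, with an interval from -0.38 to 0.36. That of Trdn was -0.24 (126, 170 and 131 beside 122, 137 and 103 CPM, adjusted p = 0.369). All 3 overlapped between groups, and their intervals leave room for changes in either direction.

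Jph2 stood at 71.1, 47.8 and 53.2 CPM in Zeb2 WT IR and at 57.9, 45.7 and 65.1 CPM in the cTg-labelled libraries, which overlapped. Its log2 fold change was -0.03 (adjusted p = 0.941), but it passed the threshold as lower, at -0.56 (adjusted p = 0.0170), with a correction for GC content. The GC content of its longest transcript, 61.8%, is the highest of the members, and across 12892 genes the log2 fold change in this comparison rose with GC content (Spearman's rho 0.55, across genes, which are not independent replicates). In the WT comparison rho was -0.29. After the correction Orai1, with 58.6% GC the next highest, had a log2 fold change of 1.00 and kept its call, and Ryr3, near the median of all genes at 49.0%, stood at 2.07.

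The pump and its regulators were closer together. Atp2a2 was at 4505, 5142 and 3871 CPM in Zeb2 WT IR and at 4422, 3976 and 4202 CPM in the cTg-labelled libraries, which overlapped (log2 fold change -0.10, 95% interval -0.44 to 0.24). Pln was at 2928, 3848 and 3182 CPM beside 2717, 2834 and 2320 CPM. Every Pln value of the cTg-labelled libraries was below every control value, but the log2 fold change of -0.34 (SE 0.16) had an adjusted p of 0.220. Scaled to cardiomyocyte markers it was -0.55 and passed the threshold (adjusted p = 0.0437, edgeR), in a setting that moved the median of all genes by -0.21. This was the only call of Pln among 12 alternative settings, over which its log2 fold change ran from -0.55 to -0.09. Among 6 fits without a library, Pln was called in 0. Cep85l on the opposite strand shares 141 exonic bases with Pln and had a log2 fold change of -0.28 (adjusted p = 0.285). Gm47644, also on the opposite strand, shares 1644 of the 2759 exonic bases of Pln and was not among the genes counted. Slc8a1, at 274, 326 and 305 beside 304, 337 and 257 CPM, overlapped with a log2 fold change of -0.01 (95% interval -0.32 to 0.30).

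Here too the cell-type markers moved beside the members. Cardiomyocyte markers summed to 61028 to 63935 CPM in Zeb2 WT IR and 70069 to 74593 CPM in the cTg-labelled libraries, with 2 of 20 called higher. Fibroblast markers summed to 935 to 2137 CPM and 556 to 684 CPM, with 3 of 10 called lower. The 7 smooth muscle markers summed to 86.0 to 109 CPM and 132 to 181 CPM, with 1 called higher. When scaled to the cardiomyocyte markers, Ryr3 was at 1.85 and Orai1 at 1.23, and both were still called higher.

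**Figure D3:**
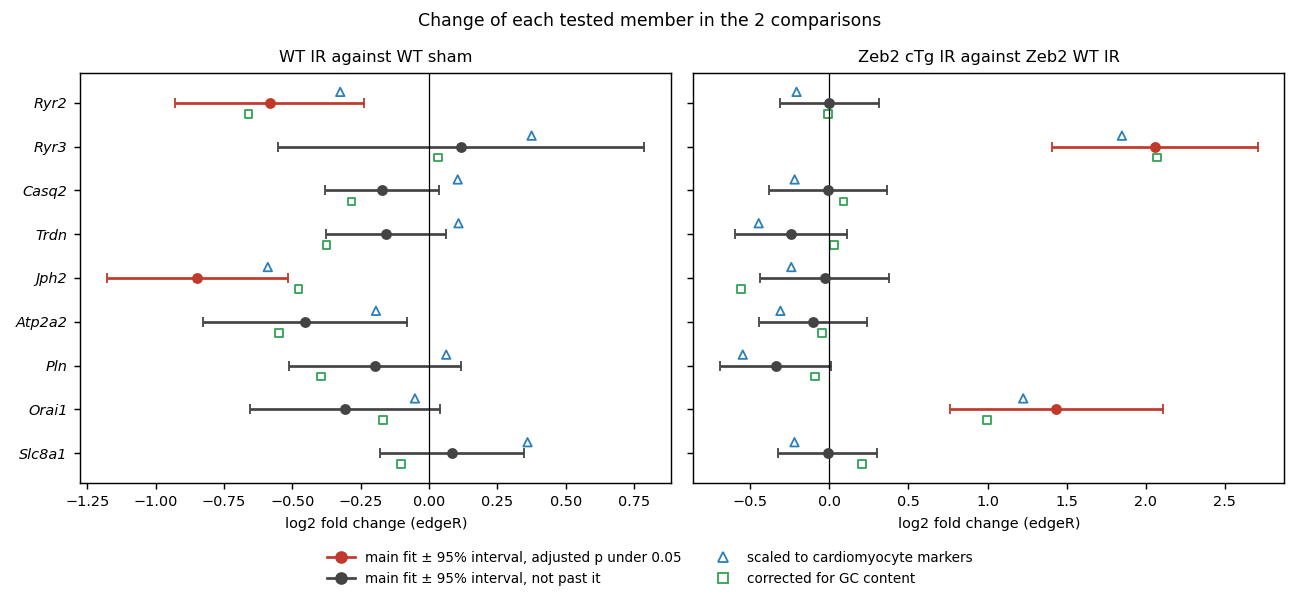
Log2 fold change (edgeR) of the 9 members tested, with WT IR against WT sham on the left and Zeb2 cTg IR against Zeb2 WT IR on the right; circles with bars are the value and its 95% interval, red where the adjusted p was under 0.05, triangles the value scaled to cardiomyocyte markers and squares the value corrected for GC content. Ryr2 (-0.58) and Jph2 (-0.85) are red on the left, and Ryr3 (2.06) and Orai1 (1.44) on the right.

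Sarcolipin (Sln), the pump inhibitor of the atria, was not detected in most libraries. It had 0 counts in 10 of 12 libraries, and a count of 0 allowed a level of up to 0.0794 to 0.175 CPM (3 counts, counting error only). It had 1 count in WT IR replicate 3 and 7 counts, 0.197 CPM, in cTg-labelled replicate 3. The latter library also held 39 counts of the atrial light chain Myl7, beside 0 to 3 counts in every other library. The 8 atrial markers together summed to 65.3 CPM there, the lowest of its group, whose other sums were 91.8 and 71.5 CPM. Whether a trace of atrial tissue entered that library was not tested.

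To compare members without any scaling between libraries, ratios of counts were formed within a library. Of 5 ratios planned, that of Sln to Pln could not be formed. With 3 libraries against 3, the two-sided exact permutation test cannot give a p below 0.1, and so no ratio could pass the threshold. After IR, Casq2 to Ryr2 was 1.35-fold higher, with 0.191 to 0.205 in WT sham and 0.227 to 0.318 in WT IR, and Slc8a1 to Atp2a2 was 1.47-fold higher, with 0.0379 to 0.0445 and 0.0546 to 0.0688. In neither did the groups overlap (exact permutation p = 0.1 and adjusted p = 0.2 over 4 ratios, for each). In these counts, release channel and pump stood lower relative to the luminal buffer and the exchanger in each WT IR library than in any WT sham library. The ratios were not corrected for GC content. It was 47.2% in Casq2 and 49.6% in Ryr2, and 40.2% in Slc8a1 and 48.2% in Atp2a2. Pln to Atp2a2 (1.20-fold) and Ryr3 to Ryr2 (1.63-fold) overlapped between WT IR and WT sham (exact permutation p = 0.2 for each).

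In the Zeb2 table, Ryr3 to Ryr2 was 4.04-fold higher in the cTg-labelled libraries, with no overlap between groups (exact permutation p = 0.1, adjusted p = 0.4). Even there, per kb of exon, Ryr3 reached at most 0.492% of the level of Ryr2. The ratio of Pln to Atp2a2 was 0.740 ± 0.0862 in Zeb2 WT IR and 0.626 ± 0.0809 in the cTg-labelled libraries (SD, n = 3), and overlapped (exact permutation p = 0.2). Casq2 to Ryr2 (0.975-fold) and Slc8a1 to Atp2a2 (1.05-fold) overlapped as well.

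**Figure D4:**
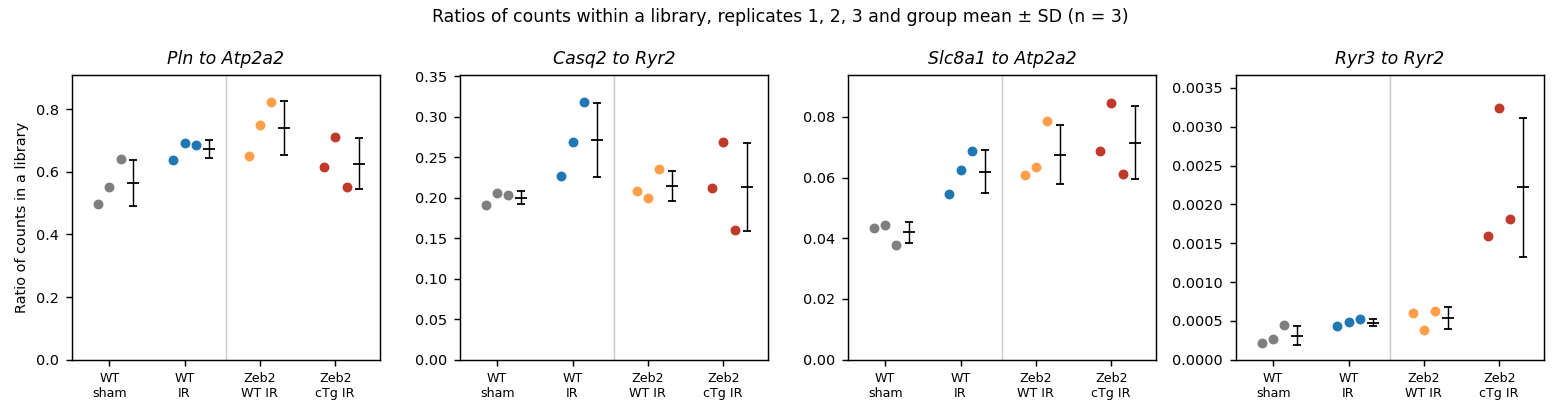
Ratios of counts of a pair of members within each library, replicates 1, 2 and 3 from left to right and the group mean ± SD (n = 3), in the 4 groups; the grey line separates the tables. Casq2 to Ryr2 and Slc8a1 to Atp2a2 lie higher in every WT IR than in every WT sham library, and Ryr3 to Ryr2 lies highest in the cTg-labelled libraries.

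The members did not move as a block across the 12 libraries. On log2 CPM centred within each table, Ryr2 and Atp2a2 were the closest pair (Pearson's r 0.96), followed by Trdn and Pln (0.91). Jph2 went with both Ryr2 (0.81) and Atp2a2 (0.80), but not with Trdn (0.08). Ryr3 and Orai1 had an r of 0.77, and Ryr3 and Pln one of -0.52. These are descriptions over 12 libraries that share their depth, composition and groups. Among 12791 genes, those most like Ryr2 included Slc25a3 (0.97), Sdha (0.96), Atp2a2 (0.96) and Slc16a10 (0.95), of which Slc25a3, the mitochondrial phosphate carrier, and Sdha, a subunit of succinate dehydrogenase, belong to mitochondria. Those most like Atp2a2 were Egln1 (0.96), Ryr2, Aifm1, Parl and Efcab2. For Ryr3 they were Ndnf (0.98), Jam2, Fam122b, Exoc4 and Ehd4, but over the 6 libraries of the WT table alone the r of Exoc4 was 0.46 and that of Ehd4 0.12, beside 0.97 and 0.98 in the Zeb2 table.

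To place the members among their partners, 64 of 65 other genes of Ca2+ handling were found in the tables, in 7 lists. After IR, 6 of 50 tested were called, 2 higher and 4 lower, beside 20.8% of all genes, with a median log2 fold change of 0.04. In the list of the release complex and lumen, Sri (sorcin, a Ca2+-binding protein that binds the release channel) rose by 0.55 on the log2 scale (adjusted p = 0.0127) and Calm2, a calmodulin gene, by 0.43 (adjusted p = 0.0345). Calm2 encodes the same protein as Calm3, so its reads are uncertain where the copies are alike. Hrc, a histidine-rich Ca2+-binding protein of the lumen, fell by 0.50 (adjusted p = 0.0385).

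Among the genes of the dyad and T-tubule, Speg, a kinase of striated muscle found at the junction, fell from 92.9 ± 10.1 CPM to 44.9 ± 8.84 CPM (n = 3 each), a log2 fold change of -1.05 (SE 0.14, adjusted p = 0.00366, edgeR). Its call was kept in 12 of 12 alternatives and 6 of 6 fits without a library, as for its neighbour at the junction, Jph2, but with a correction for GC content its log2 fold change was -0.59. Dysf, the membrane repair protein dysferlin, fell by 0.27, and Smdt1, a regulator of the mitochondrial uniporter, fell by 0.31. The calls of Hrc, Dysf and Smdt1 were lost when scaled to cardiomyocyte markers, at -0.25, 0.01 and -0.04, and each was kept in 1 of 6 fits without a library. The calls of Hrc, Dysf and Smdt1 were also lost with all 12 libraries in 1 fit, those of Dysf and Smdt1 with DESeq2, and that of Dysf with GC correction. Calm2 was likewise kept in 1 of 6, and was lost with GC correction (0.27, adjusted p = 0.0929, edgeR) and with all 12 libraries in 1 fit. Sri was kept in 4 of 6 and in every alternative, at 0.36 with GC correction.

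In the cTg-labelled libraries, 1 of 52 tested genes of these lists was called, beside 3.64% of all genes. Bin1, a membrane-bending protein of the T-tubule, rose from 2.27 ± 0.351 to 9.72 ± 1.85 CPM (SD, n = 3), a 4.27-fold difference close to that of Ryr3 in size. The log2 fold change was 2.09 (SE 0.20, adjusted p = 0.00157, edgeR), and it was called in 12 of 12 alternatives and 6 of 6 fits without a library. The calmodulin gene Calm3 was just outside the threshold, with a log2 fold change of 0.71 and an adjusted p of 0.0502, as was Smdt1 with 0.67 and 0.0567. Both were chosen after their values were seen.

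**Figure D5:**
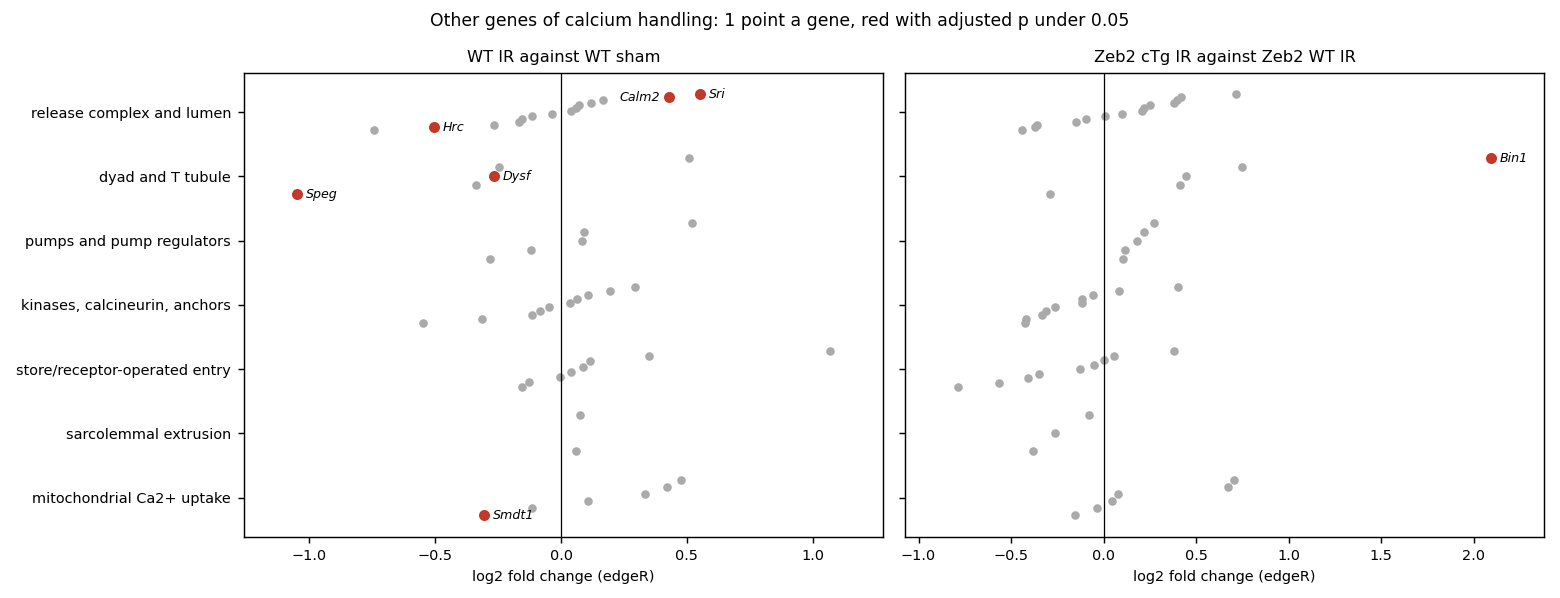
Log2 fold change (edgeR) of the other genes of Ca2+ handling in 7 lists, 1 point a gene, with WT IR against WT sham on the left and Zeb2 cTg IR against Zeb2 WT IR on the right; red points had an adjusted p under 0.05 and carry their names. On the left 6 of 50 genes are red, with Speg lowest, and on the right Bin1 alone of 52 is red.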

How the data were processed

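RNA from 12 mouse hearts was sequenced. The authors deposited whole-number counts per gene, without normalization, in 2 tables of 6 libraries and 38293 genes each. The submitters' processing notes name STAR 2.4.2a, HTSeq 0.6.1 and mm10, and the methods name GENCODE M4, strand-specific libraries and single-end reads. The labels name an mRNA kit and the methods a total RNA kit.

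The members and gene lists were chosen with earlier results of these data known. Each table was fitted alone in R 4.3.3 with edgeR 4.0.16 (TMM, filterByExpr with a minimum count of 10 and total of 15, quasi-likelihood test, Benjamini-Hochberg adjustment over all genes, threshold 0.05). The fits were also run on counts simulated from their own dispersion estimates, with larger changes than those of Ryr2 and Jph2 after IR. The outcome is not reported here, and no call rests on it. CPM are per 1000000 TMM-scaled counts. Positions, exon lengths and GC content are from GENCODE M21 (GRCm38), and promoters from RefSeq (GRCm38.p6). Named were the 10 members, Zeb2, genes of the 65-gene list that passed in either comparison, and the 5 genes most correlated with Ryr2, Ryr3 and Atp2a2, leaving out predicted genes. Not every gene this rule gives is reported here. Markers of 7 cell types were counted by list. Of the lists not given above, the endothelial (1 of 8) and smooth muscle (3 of 7) markers had members called lower after IR, and 1 smooth muscle and 1 atrial marker were called higher in each comparison.

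The alternatives tried were size factors by RLE, upper quartile or the 20 cardiomyocyte markers, no mitochondrial genes, no filter or at least 10 counts in every library, a GC correction (loess, span 0.5), the replicate number as a block, both together, all 12 libraries in 1 fit, DESeq2 1.42.0, limma-voom (limma 3.58.1), other thresholds and each library left out. The edgeR p-values set the difference between groups against the spread between hearts within a group. That spread is estimated for each gene with information drawn from the other genes of the table. No libraries of the same group were duplicates, as their counts differed by more than sampling noise. Libraries of different groups were not compared in this way. Ratios were tested with SciPy 1.17.1, and figures drawn with matplotlib 3.10.9. The authors' own release of DESeq was not run.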

Additional observations from a re-analysis of the deposited data

How the results depend on the processing

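Over the alternatives, the calls of Jph2 after IR and of Ryr3 in the cTg-labelled libraries were kept in each setting and each fit without a library. The 2 calls among members in each comparison were within 1.5 times in the 12 settings that change the fit. Leaving out a library gave 1 to 4 calls in the WT table, with 4 (Ryr2, Trdn, Jph2, Atp2a2) without WT IR replicate 1, and 1 to 2 in the Zeb2 table. Of the other Ca2+ genes, the 6 called in the WT table became 13 with cardiomyocyte marker factors, 12 with no filter or an adjusted p under 0.10, 19 at an unadjusted p under 0.05, and 1 to 22 when a library was left out. The 1 called in the Zeb2 table became 2 with RLE factors or no mitochondrial genes, 8 with marker factors, 5 with no filter, 4 with GC correction, 9 with all 12 libraries in 1 fit, 6 with DESeq2, 7 and 15 at the looser thresholds, and 1 to 14 without a library. Why these counts moved was not tested. Over all genes, the replicate block gave 1813 calls in the Zeb2 table (main 474), and marker factors gave 2851 higher and 248 lower in the WT table (main 1519 and 1340) and 194 and 985 in the Zeb2 table (main 278 and 196).

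Replicate numbers were not taken as pairs in the main fit. Deviations of same-numbered samples had mean correlations of -0.01 (WT) and 0.12 (Zeb2), with 2 of 3 Zeb2 pairs over 0.1. For samples with different numbers the means were 0.01 (WT) and -0.06 (Zeb2). The highest value in the Zeb2 table was 0.33, for Zeb2 WT IR replicate 1 with cTg-labelled replicate 3. These values do not settle whether the samples of the Zeb2 table were paired. The replicate block gave 7 called Ca2+ genes in the Zeb2 table, and 4 with the GC correction added; of the members, only Orai1 lost its call, at 1.01 (adjusted p = 0.0581, edgeR) under the block with GC correction, which also gave the calls of Trdn (WT) and Jph2 (Zeb2) that GC correction alone gave.

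Log2 fold changes that turned sign belonged to members that passed no test in these settings. With marker factors Casq2, Trdn and Pln turned to 0.11, 0.11 and 0.063 in the WT table. There Slc8a1 was at -0.10 with GC correction and -0.092 with the block added, Ryr3 at -0.083 without WT sham replicate 1 (0.33 at the highest) and Slc8a1 at -0.047 without WT sham replicate 3 (0.16). In the Zeb2 table Ryr2 was at 0.010 with no filter, 0.0063 with the block, 0.0052 with limma-voom, 0.014 with all libraries and 0.0019 with block and GC correction. Casq2 was at 0.00093 with no filter, 0.089 with GC correction, 0.072 with the block added and 0.0051 with all libraries. Trdn was at 0.028 with GC correction and 0.031 with the block added, and Slc8a1 at 0.20 in both and 0.0036 with all libraries. Without a library, Ryr2 ran from -0.070 to 0.11, Casq2 from -0.18 to 0.14, Jph2 from -0.15 to 0.15, Atp2a2 from -0.20 to 0.0032, Slc8a1 from -0.11 to 0.090, and the log2 ratios of Casq2 to Ryr2 from -0.22 to 0.16 and of Slc8a1 to Atp2a2 from -0.052 to 0.19. Depth limited Ryr3, Orai1 and Sln, whose counts lay between 0 and 167.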
